A study of Mus musculus with 6 samples.

Results

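The genes described here are 8 epithelial genes that normally mark stomach and gut: Tff1, Tff2, Lypd8l, Dmbt1, Phgr1, Lgals4, Rbp2 and Vsig1, out of 34187 genes in the matrices. They were read in tumor epithelial barcodes, which were defined by at least 5 UMIs of Krt8 and Krt18 together, 0 UMIs of Ptprc, 1000 or more genes and no more than 10% mitochondrial UMIs. Krt8 and Krt18 encode the keratins of simple epithelia and Ptprc encodes CD45. The gate held 39393 of 130444 barcodes, with 10069 with PBS, 7508 with mono-IL10 and 21816 with IL10/2-Trikine. The 8 genes had been listed because they were seen in these barcodes, so their presence there and their height over immune cells are given as descriptions with no test.

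C57BL/6 mice of both sexes carried subcutaneous tumors grown from 250000 cells of 6694c2vTRP1, a mouse pancreatic ductal adenocarcinoma line derived as 1 clone. The mice were injected intraperitoneally with PBS, with 26 µg of mono-IL10 or with 30.6 µg of IL10/2-Trikine per mouse, in 2 doses from day 8, and tumors were taken on day 14. Mono-IL10 is a monomeric human IL-10, and IL10/2-Trikine is the same cytokine joined to an IL-2 variant that recruits the IL-2 receptor beta chain without signaling alone. The cells were isolated with CD45 beads, labeled with hashtag antibodies 1 to 5, pooled by treatment into 1 library each and run on the 10x GEM-X 5′ assay, so library and treatment cannot be told apart. The tumor cells therefore came through an isolation aimed at immune cells, and the share of a tumor that they represent is not known. Each of the 3 libraries held hashtags of 5 mice.

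In the stomach, trefoil peptides are secreted with mucus by surface and neck cells and help the lining to reseal after injury. Enterocytes of the gut carry a different set of proteins, among them galectins on the brush border and binding proteins that hold retinol taken up from food. Healthy pancreatic ducts are not known for these programs, whereas pancreatic tumors and their precursor lesions are known to take them on.

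A mouse was assigned to 19192 tumor epithelial barcodes that carried a single hashtag. These gave 581 to 2616 barcodes and 8784593 to 58448577 UMIs per mouse. No hashtag was called on 46.0% of the tumor barcodes with PBS, 39.0% with mono-IL10 and 48.5% with IL10/2-Trikine. Median UMIs per tumor barcode were 19184, 28278 and 8817.5 in the same order, so shares of tumor barcodes with a gene are given after each barcode was thinned to 5000 UMIs unless said otherwise. The same cell barcode sequence was a tumor barcode in both libraries 56 times for IL10/2-Trikine and PBS, 44 times for IL10/2-Trikine and mono-IL10 and 19 times for mono-IL10 and PBS. The label was checked on epithelial markers: Krt19 was found in 89.9% to 90.7% of the thinned barcodes of a library (92.8% to 97.1% without thinning) and Cdh1, encoding E-cadherin, in 69.7% to 74.3% (86.4% to 96.0% without thinning). Epcam, the epithelial adhesion molecule used in many sorts, was found in only 4.68% with PBS, 5.001% with mono-IL10 and 6.37% with IL10/2-Trikine after thinning, against 8.92% to 11.2% without thinning, and Cldn7, a tight junction gene, in 0.116% or less (0.346% or less without thinning). Tyrp1, the antigen named in the line, stood at 48.7 CPM (UMIs scaled to a total of 1000000) with PBS, 53.1 with mono-IL10 and 36.8 with IL10/2-Trikine.

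The promoters of the 3 enterocyte genes that correlated across barcodes are shown first, since their sequences can be set beside the correlations given further on. The RefSeq promoter table (GRCm38.p6) held 4 of the 8 genes, namely Lgals4, Phgr1, Rbp2 and Vsig1. Each sequence spans 250 bases before and 50 bases after the annotated start on the + strand, in lower case, and capitals mark the matches to the motifs named next. Lgals4 lies at chr7:28833544-28833843, Phgr1 at chr2:118772524-118772823 and Rbp2 at chr9:98490287-98490586.
Lgals4: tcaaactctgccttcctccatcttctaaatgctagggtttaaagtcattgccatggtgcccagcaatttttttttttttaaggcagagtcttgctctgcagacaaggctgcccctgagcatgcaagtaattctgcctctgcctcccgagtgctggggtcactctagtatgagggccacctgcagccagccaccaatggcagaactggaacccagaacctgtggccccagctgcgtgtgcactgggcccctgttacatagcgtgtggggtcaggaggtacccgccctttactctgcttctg
Phgr1: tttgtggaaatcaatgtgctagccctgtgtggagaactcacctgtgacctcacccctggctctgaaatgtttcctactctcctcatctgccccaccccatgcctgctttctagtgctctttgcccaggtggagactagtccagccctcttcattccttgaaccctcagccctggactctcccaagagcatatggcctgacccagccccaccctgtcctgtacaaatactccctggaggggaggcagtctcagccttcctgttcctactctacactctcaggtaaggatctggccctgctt
Rbp2: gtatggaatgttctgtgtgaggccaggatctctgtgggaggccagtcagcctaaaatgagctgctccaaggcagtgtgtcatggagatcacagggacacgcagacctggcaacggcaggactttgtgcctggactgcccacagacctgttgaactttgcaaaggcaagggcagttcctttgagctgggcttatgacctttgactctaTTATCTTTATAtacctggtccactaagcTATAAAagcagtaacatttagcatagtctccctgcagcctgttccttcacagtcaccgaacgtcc

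Motif letters of gut factors were searched on both strands of the 4 promoters. They were TGTTTAC for forkhead factors, AGATAA for zinc finger factors of the endoderm, TTTATG for caudal factors, CAAAGTCCA for HNF4 and TATAAA for the basal promoter. Rbp2 held AGATAA at bases 208 to 213 on the minus strand, TATAAA at bases 213 to 218 on the minus strand and TATAAA at bases 236 to 241 on the plus strand, of which the first and the second share 1 base. Lgals4, Phgr1 and Vsig1 held 0 matches of these 5 motifs. Over all 32851 promoters of the table, 11.2% held AGATAA, 13.6% TATAAA, 11.9% TTTATG, 3.65% TGTTTAC and 0.475% CAAAGTCCA. Letters in a window are a description and not a binding site.

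Over the 15 mice the mean level was 264 ± 27.1 CPM (SD, n = 15) for Vsig1, 179 ± 43.3 for Rbp2, 177 ± 45.6 for Lypd8l, 155 ± 43.0 for Dmbt1, 144 ± 29.1 for Lgals4, 102 ± 35.3 for Tff2, 36.3 ± 22.5 for Tff1 and 21.2 ± 9.97 for Phgr1. These CPM were not scaled by gene length. How evenly the 5′ assay captures each gene was not tested, so the order of the genes is a description. Among neighbours in this order, Rbp2 and Lypd8l, Lypd8l and Dmbt1, and Dmbt1 and Lgals4 differed by less than the SD of either gene, and Tff1 and Phgr1 by less than the SD of Tff1 but more than that of Phgr1. The mouse with the highest Vsig1 had 1.45 times the lowest, whereas the ratio was 8.57 for Tff1, 6.77 for Phgr1 and 4.36 for Tff2. The coefficient of variation over mice was 61.9% for Tff1 and 10.3% for Vsig1.

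**Figure D1:**
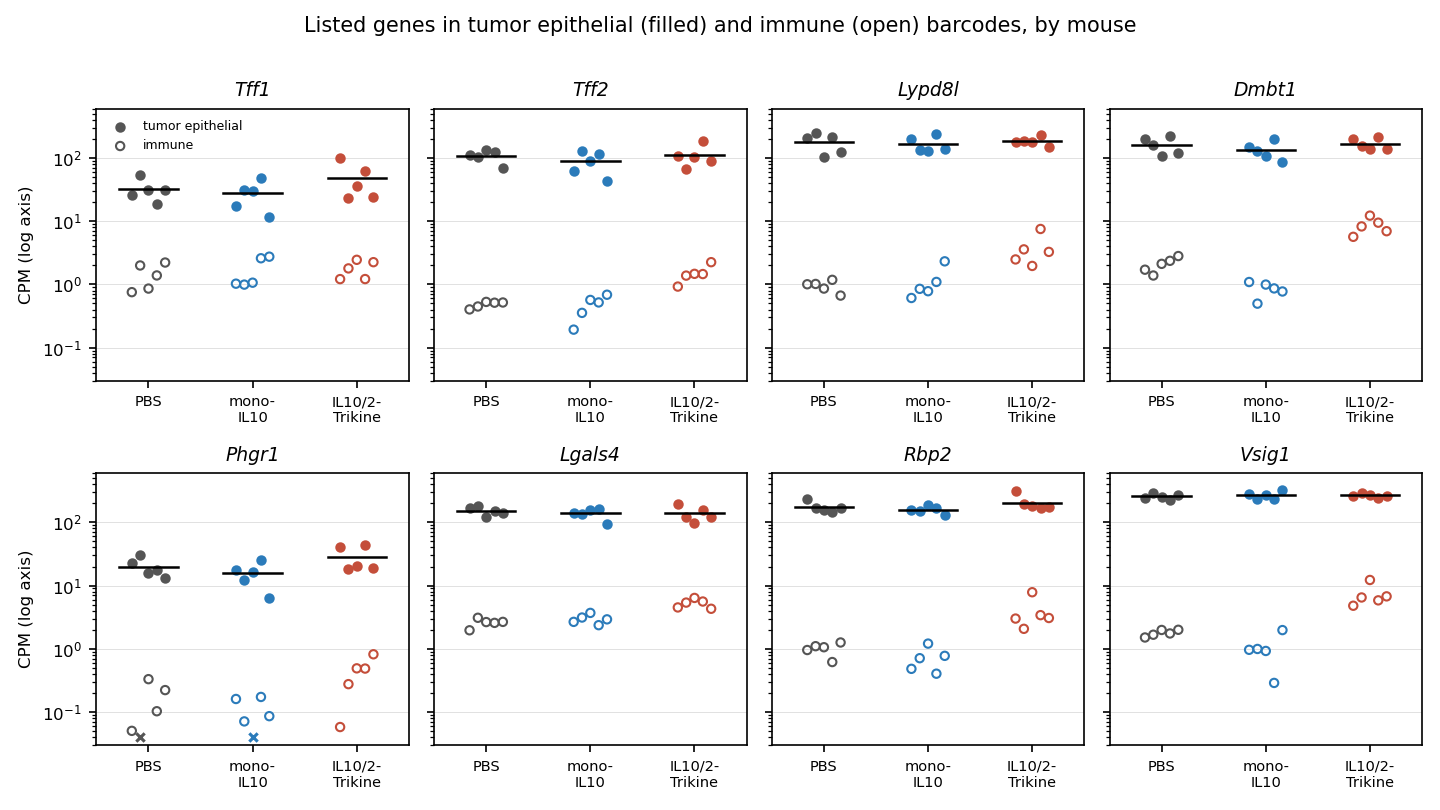
Level of each of the 8 genes in CPM on a log axis, with 1 point per mouse, filled for tumor epithelial and open for immune barcodes, and a line at the mean of the 5 mice of a group. Every filled point lies above every open point of its gene, and crosses mark the mice in which Phgr1 was at 0 in immune barcodes.

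Tff1 encodes a trefoil peptide of the gastric surface mucus and Tff2 the trefoil peptide of neck mucous cells, and both genes lie side by side on the chromosome. Tff1 stood at 25.8, 54.6, 31.6, 18.6 and 31.7 CPM in PBS mice 1 to 5. In mono-IL10 mice 1 to 5 it stood at 17.2, 30.7, 30.4, 47.4 and 11.7 CPM. In IL10/2-Trikine mice 1 to 5 it stood at 100.4, 22.9, 35.6, 62.0 and 23.9 CPM. IL10/2-Trikine mouse 1 was the highest of all 15, and the 3 groups overlapped.

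Tff2 stood at 112, 103.5, 132, 123 and 69.6 CPM in PBS mice 1 to 5. In mono-IL10 mice it stood at 61.5, 131, 89.6, 116 and 42.8 CPM, and in IL10/2-Trikine mice at 106, 66.7, 105, 187 and 90.6 CPM. IL10/2-Trikine mouse 4 was the highest and mono-IL10 mouse 5 the lowest, which was also the lowest for Tff1. The third trefoil gene, Tff3, lies next to Tff2 in RefSeq gene order and reached only 0.296 CPM with PBS, 0.331 with mono-IL10 and 0.371 with IL10/2-Trikine.

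The trefoil transcripts were held by few barcodes. A UMI of Tff1 was found in 3.03% (95% exact binomial interval 2.70 to 3.398) of thinned PBS barcodes, 2.71% (2.35 to 3.11) of mono-IL10 and 3.36% (3.10 to 3.63) of IL10/2-Trikine barcodes. These intervals, like the others on shares, cover counting error only. For Tff2 the shares were 7.15%, 6.31% and 8.35%. The top 1% of barcodes by Tff1 held 80.4% of all Tff1 UMIs with PBS, 83.5% with mono-IL10 and 82.7% with IL10/2-Trikine, and for Tff2 the top 1% held 60.1%, 58.1% and 54.6%. A single mono-IL10 barcode held 2185 UMIs of Tff1, and the highest Tff2 count in 1 barcode was 1852, also in mono-IL10.

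The 5 barcodes with the most Tff1 held 53.8% to 76.7% of the Tff1 UMIs of a mouse with PBS, 55.7% to 79.0% with mono-IL10 and 34.6% to 74.1% with IL10/2-Trikine, where mice had 581 to 2616 barcodes, so 5 barcodes are not the same fraction of each. IL10/2-Trikine mouse 1 had the 74.1%, and its level without them was 26.1 CPM. Leaving out the 5 top barcodes of every mouse, an alternative chosen after the data were seen, gave 11.2 ± 8.07 CPM (SD, n = 5) with PBS, 9.56 ± 7.05 with mono-IL10 and 22.3 ± 10.5 with IL10/2-Trikine.

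Dmbt1 encodes a scavenger protein of mucosal surfaces that binds bacteria, and Lypd8l is named for its likeness to Lypd8, a protein that keeps flagellated bacteria off the colon lining. Lypd8l stood at 205, 248, 104, 212 and 123 CPM in PBS mice 1 to 5. In mono-IL10 mice it stood at 198, 135, 129.7, 242 and 138 CPM, and in IL10/2-Trikine mice at 178, 186, 178, 231 and 152 CPM. The IL10/2-Trikine mice lay within the range of the PBS mice.

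Dmbt1 stood at 203, 162, 107, 220.5 and 122 CPM in PBS mice 1 to 5. In mono-IL10 mice it stood at 148, 129, 106, 199 and 86.7 CPM, and in IL10/2-Trikine mice at 200.009, 153, 138, 215 and 141 CPM. PBS mice 3 and 5 were low for both Lypd8l and Dmbt1, and mouse 4 was the highest mono-IL10 mouse for both. A UMI was found in 25.2%, 25.01% and 27.9% of thinned barcodes for Lypd8l, and in 22.6%, 20.3% and 27.4% for Dmbt1, in the order PBS, mono-IL10 and IL10/2-Trikine. A single mono-IL10 barcode held 1109 UMIs of Dmbt1.

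Phgr1 encodes a short protein rich in proline, histidine and glycine that is made in the gut epithelium, Lgals4 encodes galectin-4, which sits on the enterocyte brush border, and Rbp2 encodes the retinol binding protein of enterocytes. Phgr1 stood at 22.8, 29.9, 15.7, 17.4 and 13.2 CPM in PBS mice 1 to 5, at 17.6, 12.3, 16.5, 25.6 and 6.36 CPM in mono-IL10 mice and at 40.1, 18.3, 20.2, 43.1 and 18.8 CPM in IL10/2-Trikine mice. IL10/2-Trikine mice 1 and 4 lay above all other mice, as they did for Tff1. Its UMIs were again concentrated: 5.35%, 4.20% and 7.15% of thinned barcodes had one, and the top 1% held 45.1%, 45.2% and 43.0% of them.

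Lgals4 stood at 169, 183, 119, 151 and 141 CPM in PBS mice 1 to 5, at 142, 134, 159, 162 and 94.6 CPM in mono-IL10 mice and at 197, 124, 98.0, 159.6 and 123 CPM in IL10/2-Trikine mice. Rbp2 stood at 233, 166, 156, 144 and 168 CPM in PBS mice, at 158, 149.7, 187, 170.4 and 132 CPM in mono-IL10 mice and at 310.4, 192, 183, 168 and 174 CPM in IL10/2-Trikine mice. Mouse 1 stood clear of the other mice for Rbp2 in both PBS and IL10/2-Trikine. A UMI of Lgals4 was found in 33.8%, 30.96% and 37.6% of thinned barcodes and one of Rbp2 in 37.4%, 34.8% and 42.1%.

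Vsig1 encodes an adhesion protein of the immunoglobulin family that is known from gastric epithelium. It stood at 247, 287, 255, 227 and 276 CPM in PBS mice 1 to 5, at 278, 230.3, 267, 231 and 328 CPM in mono-IL10 mice and at 257, 294, 272, 247 and 265 CPM in IL10/2-Trikine mice. The groups overlapped throughout. Vsig1 was also the most widespread of the 8 genes, with a UMI in 59.0% (58.0 to 60.0), 59.8% (58.6 to 60.9) and 60.2% (59.5 to 60.9) of thinned barcodes, and its top 1% of barcodes held 7.74% to 8.69% of its UMIs.

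At least 1 of the 8 genes was detected in 84.8% of thinned PBS barcodes, 84.2% of mono-IL10 and 88.4% of IL10/2-Trikine barcodes, with a median of 2 genes per barcode in each library. At least 5 of the genes were detected in 6.90%, 5.81% and 8.63%, and all 8 in 5, 7 and 40 barcodes. The share in the IL10/2-Trikine library was the highest of the libraries for all 8 genes. The thinned sets also hold barcodes with no mouse and leave out 542, 170 and 3639 barcodes that were too shallow, and for Lgals4 the mean CPM over mice was higher in PBS, so no order between treatments was read from the shares. Beside the gate's threshold, Lgals4 was found without thinning in 17.7% of PBS barcodes with 5 to 9 keratin UMIs and in 9.79% of those with 1 to 4. With 1 to 4 keratin UMIs and no Ptprc there were 521 barcodes with PBS, 268 with mono-IL10 and 1993 with IL10/2-Trikine. Vsig1 stood at 62.9, 42.3 and 174 CPM in them, in the same order. The gate thus left out more such barcodes in the shallow IL10/2-Trikine library, and the part of this in the comparisons was not tested.

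**Figure D2:**
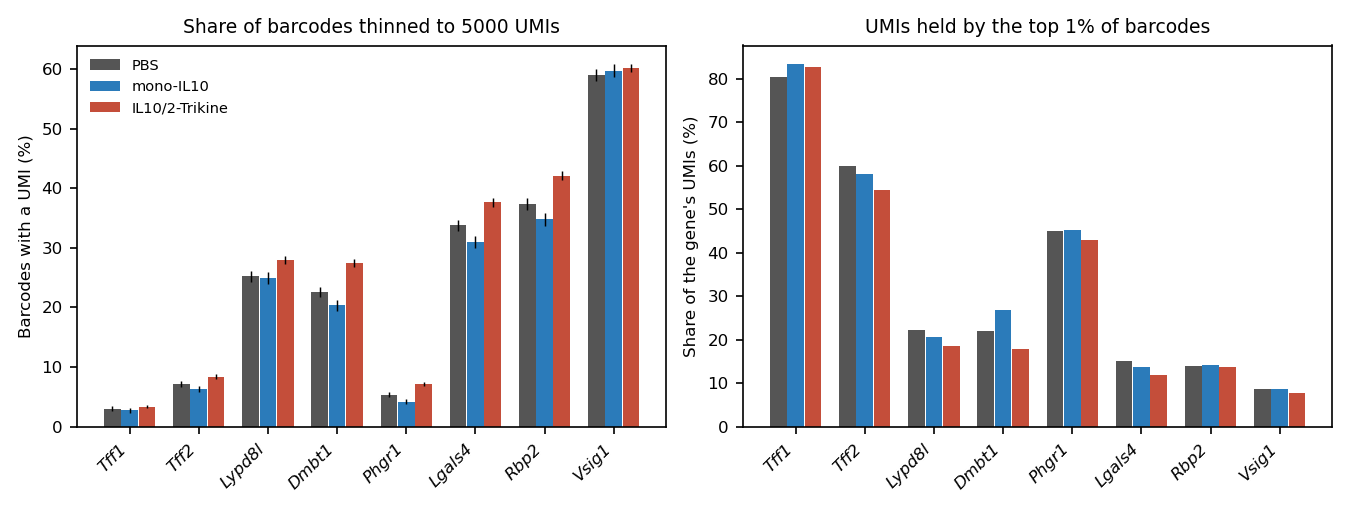
Left, the percent of tumor epithelial barcodes with a UMI of each gene after thinning to 5000 UMIs, with bars per library and 95% exact binomial intervals as error bars. Right, the percent of a gene's UMIs held by the 1% of barcodes with the most of it; Tff1 reached 80.4% to 83.5% there and Vsig1 7.74% to 8.69%.

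Immune barcodes gave a background level. They carried at least 2 UMIs of Ptprc and fewer than 5 of Krt8 and Krt18, with a median of 6194 UMIs with PBS, 7290 with mono-IL10 and 3741 with IL10/2-Trikine. In the library sums, the tumor level was 92.7 to 245 times the immune level for Tff2, 98.5 to 182 times for Phgr1, 60.9 to 221 times for Rbp2, 45.4 to 179 times for Lypd8l, 32.7 to 260.0 times for Vsig1, 24.96 to 113 times for Dmbt1, 27.8 to 58.0 times for Lgals4 and 24.1 to 31.6 times for Tff1. After thinning, no gene was found in more than 3.10% of the immune barcodes of a library. How much of this background is free RNA was not tested: 10.1% to 13.0% of the immune barcodes of a library carried a Krt8 or Krt18 UMI, and Tff1 was found in annotated T cells.

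The level in immune barcodes differed between the libraries. For 7 of the 8 genes the immune level in the IL10/2-Trikine library was 2.06 to 4.06 times that in PBS, with Dmbt1 at 7.45 against 1.83 CPM and Vsig1 at 8.07 against 2.02 CPM. For Tff1 the ratio was 1.05, at 1.46 against 1.40 CPM. A Krt8 or Krt18 UMI was found in 72.8% of the immune barcodes with Vsig1 and 58.2% of those with Dmbt1 in IL10/2-Trikine, against 13.0% of all immune barcodes of that library. Without the barcodes that held such a UMI, the IL10/2-Trikine level was 1.70 to 2.66 times that in PBS for the same 7 genes, with Dmbt1 at 2.50 against 1.41 CPM and Vsig1 at 1.84 against 0.789 CPM, and Tff1 stood at 1.238 against 1.4998 CPM. These levels over all immune barcodes are small beside the tumor levels of the same genes, but that of Tff1 in annotated T and NK cells was not, and their part in the tumor values was not tested.

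Tff1 was the exception among the 8 in immune cells, and its UMIs there did not follow those of the other genes. Among the 2084 T and NK cells annotated in the deposited table, 24 carried Tff1, with 106 UMIs in all and up to 32 in 1 cell. Of these cells, 22 belonged to the clusters named act_CD4T, Treg and Cycling_Treg, a split chosen after the values were seen. All other annotated clusters were counted together as the rest, so the split is not one of all CD4 T cells. The act_CD4T, Treg and Cycling_Treg clusters together held Tff1 in 22 of 331 cells, or 6.65% (4.21 to 9.89). The other T and NK clusters held it in 2 of 1753 cells, or 0.114% (0.0138 to 0.412). Median UMIs per cell were 2884 and 3108 in the same order. By library the share in the act_CD4T, Treg and Cycling_Treg clusters together was 7.50% with PBS, 6.16% with mono-IL10 and 6.15% with IL10/2-Trikine. The small Cycling_Treg cluster held Tff1 in 3 of 13 cells with PBS and 2 of 6 with mono-IL10. Lgals4, read the same way, was found in 2.42% of the cells of these clusters and 2.57% of the others. Of the 24 cells with Tff1, 18 also held Cd3e, a T cell receptor component, 1 held a keratin UMI and 0 held Tff2. Tff2 was rare in all annotated cells, at 0 of the 331 cells of these clusters and 3 of the 1753 others. Its absence from 24 cells therefore cannot tell where their Tff1 came from. Over all annotated T and NK cells the Tff1 level was 11.7 CPM with PBS, 18.5 with mono-IL10 and 4.73 with IL10/2-Trikine, or 34.6%, 54.3% and 10.2% of the tumor level in the same order. These levels rest on 21, 75 and 10 UMIs, and with mono-IL10 1 cell of the act_CD4T cluster held 32 of the 75 and 1 of the NK cluster 23. The source of these UMIs was not tested.

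Correlations between the 8 genes were computed across tumor epithelial barcodes. The correlations below are Pearson's r of log2(UMIs per 10000 + 1) within a library, averaged over the 3 libraries, and they are descriptions over 10069, 7508 and 21816 barcodes that share a library and differ in depth. Tff1 and Tff2 had the highest r, 0.57, with 0.56 to 0.60 by library. Lypd8l and Dmbt1 had an r of 0.50, Lgals4 and Rbp2 0.48, Phgr1 and Lgals4 0.44, and Lypd8l and Lgals4 0.43. Dmbt1 and Lgals4 had an r of 0.37, Lypd8l and Phgr1 0.35, and Phgr1 and Rbp2 0.33, so pairs across the roles overlapped those within them. The trefoil genes had an r of 0.10 to 0.26 with the mucosal defence and enterocyte genes. Vsig1 stood apart, with an r of 0.12 with Rbp2 and of 0.03 or less with the other 6. Among thinned PBS barcodes, Tff2 was found in 71.3% of those with Tff1 and in 5.14% of those without. In the other direction Tff1 was found in 30.2% to 31.7% of barcodes with Tff2, so most Tff2-positive barcodes had no detected Tff1.

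**Figure D3:**
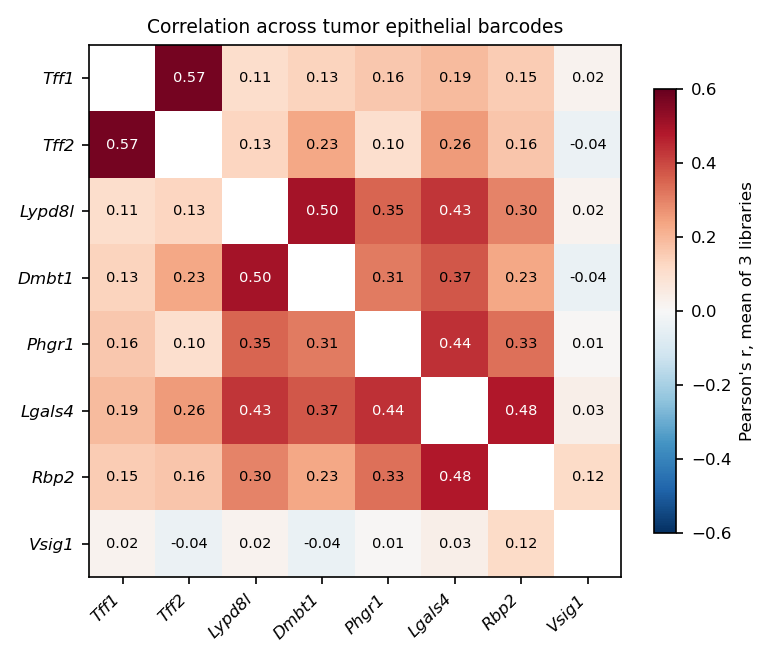
Pearson's r between the 8 genes across tumor epithelial barcodes, as the mean over the 3 libraries, with the value written in each cell and a color scale from -0.6 to 0.6. Tff1 with Tff2 (0.57), Lypd8l with Dmbt1 (0.50) and Lgals4 with Rbp2 (0.48) are the darkest cells, and the Vsig1 row is pale.

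Genes with the most similar pattern were found by their r with the mean log2 level of the 8 genes, ranked by the lowest r over the 3 libraries among 11408 genes. The 10 leading genes were Fxyd3 (lowest r 0.46), Car2 (0.45), Mgst3 (0.45), Sult1c2 (0.45), Sptssb (0.45), Tm4sf20 (0.43), Prap1 (0.42), Krt19 (0.42), Lgals2 (0.39) and Gsta4 (0.38). Car2 encodes a carbonic anhydrase, Krt19 a keratin of ductal epithelium, Lgals2 another galectin, and Mgst3 and Gsta4 glutathione transferases. With thinned barcodes 9 of the 10 stayed in the leading 10, and with at least 20 keratin UMIs 8 did. At the other end were Cald1, an actin-binding gene of contractile and migrating cells, with a lowest r of -0.41, Hmga2, a chromatin protein of embryonic and mesenchymal-type cells, with -0.39, and Fbln2, a matrix gene, with -0.38.

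The barcodes were split by Epcam, by Krt20 and by Hmga2, all chosen after the values were seen. With Epcam the shares of 5 of the 8 genes were higher in all 3 libraries and those of 3 lower, beside 19% and 35.4% of the 10059 genes found in at least 2% of thinned barcodes. Epcam was detected in 446, 367 and 1158 thinned barcodes of PBS, mono-IL10 and IL10/2-Trikine. Phgr1 was found in 27.6% of PBS barcodes with Epcam and 4.26% of those without, and the ratio of shares was 4.94 to 6.47 over the libraries. For Lgals4 the shares in PBS were 76.7% and 31.7%, with ratios of 2.07 to 2.42, and the ratios were 1.85 to 2.10 for Lypd8l, 1.45 to 1.64 for Dmbt1 and 1.22 to 1.41 for Rbp2. Vsig1 had ratios of 0.932 to 0.957. Tff2 had ratios under 1, of 0.592 to 0.818, and Tff1 had ratios of 0.193 to 0.895. In mono-IL10, Tff1 was found in 0.545% of the 367 barcodes with Epcam and 2.83% of those without, so the lowest ratio rests on very few barcodes. Split by Krt20, a keratin of the differentiated gut lining, all 8 genes had ratios above 1 in every library, as did 22.7% of all those genes, with ratios of 1.62 to 1.77 for Tff1, 1.195 to 1.201 for Tff2, 2.12 to 2.82 for Phgr1 and 1.12 to 1.13 for Vsig1.

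Hmga2 was detected in 5192, 4278 and 9320 thinned barcodes, and the shares of 7 of the 8 genes were lower there in every library, as were those of 23.8% of all genes found in at least 2% of thinned barcodes. Hmga2 had a low correlation with the mean of these 8 genes, so the direction is a description and not a separate result. The ratio of shares with against without Hmga2 was 0.251 to 0.361 for Phgr1, 0.367 to 0.451 for Tff2, 0.427 to 0.477 for Dmbt1, 0.431 to 0.4931 for Lypd8l, 0.505 to 0.561 for Lgals4, 0.347 to 0.712 for Tff1 and 0.758 to 0.813 for Rbp2. Vsig1 went the other way, at 1.04 to 1.09, as did 45% of all those genes. Barcodes with Tff1 or Tff2 (764, 515 and 1655 after thinning) were set beside the other barcodes. Genes entered with at least 5 CPM in either of the 2 sets of barcodes, in every library. In all 3 libraries 8 of 14 intestinal epithelial genes were 1.5-fold or more above the other barcodes, beside 1 of 6 gastric surface and neck mucous genes. Over all genes entered, Tff1 and Tff2 left out, the share was 1.13%, or 112 of 9926. The median log2 ratio was 0.79 for the intestinal list, 0.29 for the gastric list and -0.12 over all these genes. A gene could enter through the barcodes with Tff1 or Tff2 alone. These counts and medians are therefore partly set by the filter, and no difference between the lists was read from them. Prap1, a secreted gut epithelial protein gene, stood at 45.3 against 7.49 CPM in PBS.

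**Figure D4:**
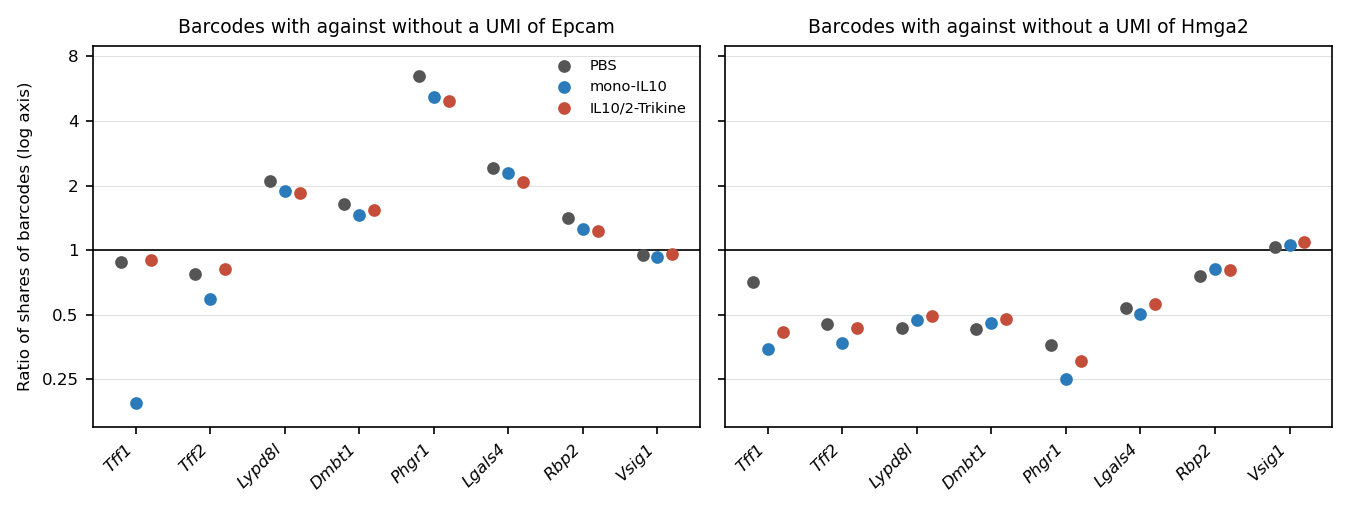
Ratio, on a log axis, of the share of thinned tumor epithelial barcodes with a UMI of each gene between barcodes with and without Epcam (left) or Hmga2 (right), with 1 point per library and a line at a ratio of 1. Phgr1 lies at 4.94 to 6.47 on the left and at 0.251 to 0.361 on the right, while Vsig1 lies near 1 in both panels.

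Other gut genes were read from lists. Of 24 gut and foregut transcription factors, 14 had a mean level of at least 10 CPM and 4 were under 1 CPM. The highest were Klf4 at 331 CPM, Sox9 at 306 and Klf5 at 182, and Hnf4a stood at 75.9, Pdx1 at 13.4 and Cdx2 at 5.85 CPM. Of 20 genes listed as gastric surface and neck mucous only 6 reached 10 CPM, led by Onecut2 at 471, Anxa10 at 205 and Muc1 at 117 CPM. Under 1 CPM were 10 of them, among these the mucin genes Muc5ac at 0.525 and Muc6 at 0.395 CPM, so the levels of the list do not rest on these mucins. Of 34 intestinal epithelial genes 9 reached 10 CPM, led by Lgals2 at 1129, Tspan8 at 609 and Krt20 at 109 CPM, and 18 were under 1 CPM. Of 14 basal and mesenchymal genes 8 reached 10 CPM, led by Vim, the mesenchymal intermediate filament, at 3154 CPM, Fn1, fibronectin, at 1105 and S100a4 at 492.8 CPM, and 5 were under 1 CPM. Among its basal genes Krt5, Krt6a, Krt17 and Trp63 were under 1 CPM, whereas Krt14 stood at 27.5 CPM and was found in 8.70% to 9.77% of the thinned barcodes of a library (15.1% to 29.7% without thinning). Among galectins Lgals1 stood at 2286 and Lgals3 at 1292 CPM, and among retinoid genes Rbp4 at 348 and Rdh10 at 258 CPM.

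None of the 8 genes was called between treatments. Counts were summed per mouse over barcodes with 1 hashtag, and all 15 mice entered 1 edgeR quasi-likelihood fit with Benjamini-Hochberg adjustment over the 14910 genes tested, among which all 8 members were present. Between IL10/2-Trikine and PBS 23.1% of all genes were called at an adjusted p of 0.05, between IL10/2-Trikine and mono-IL10 35.4%, and between mono-IL10 and PBS 5.63%. By direction, 10.8% were higher and 12.3% lower in the first of these comparisons, 16.6% and 18.8% in the second, and 4.22% and 1.41% in the third. For the members the count was 0 of 8 in each comparison by edgeR and also by DESeq2. At an unadjusted p of 0.05 the counts were 0, 1 (Phgr1) and 0 of 8, where 35.5%, 44.3% and 21% of all genes passed. The median log2 fold change of the 8 genes was 0.07, 0.25 and -0.10, with a median over all genes tested of 0.00060, 0.0064 and -0.0013. Both treated groups were set against the same PBS animals. For each of the 8 genes the groups of mice overlapped, but the share of all genes whose groups overlap was not counted. The overlap is therefore a description and not a result about these genes.

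Phgr1 was nearest to a call. It averaged 28.1 ± 12.4 CPM (SD, n = 5) with IL10/2-Trikine, 15.7 ± 7.11 with mono-IL10 and 19.8 ± 6.67 with PBS. Its log2 fold change against mono-IL10 was 0.74 (SE 0.34, 95% interval 0.02 to 1.46, edgeR adjusted p = 0.104) and against PBS 0.49 (SE 0.34, -0.23 to 1.202, edgeR adjusted p = 0.323). Against mono-IL10 the call was made, with an edgeR adjusted p of 0.0348, when barcodes needed at least 20 keratin UMIs, with 0.000805 when they needed Epcam and with 0.0329 when mono-IL10 mouse 4 was left out. None of the rest of the 10 alternatives gave a call for Phgr1, nor did leaving out any other of the 15 mice. The Epcam setting also selects barcodes in which Phgr1 was found more often.

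Tff1 averaged 49.0 ± 32.8 CPM with IL10/2-Trikine, 32.5 ± 13.5 with PBS and 27.5 ± 13.9 with mono-IL10 (SD, n = 5). Its log2 fold change was 0.53 against PBS (SE 0.42, 95% interval -0.35 to 1.42, edgeR adjusted p = 0.391) and 0.69 against mono-IL10 (SE 0.42, -0.20 to 1.58, adjusted p = 0.219). Without IL10/2-Trikine mouse 1 these were 0.15 and 0.32. Tff2 differed from PBS by 0.05 (SE 0.29, -0.55 to 0.66, edgeR adjusted p = 0.925), with 111 ± 45.3 against 108 ± 24.2 CPM. The sign turned in barcodes with Epcam (-0.86), without IL10/2-Trikine mouse 4 (-0.21) and without PBS mouse 5 (-0.071).

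The other genes were more tightly bounded. Vsig1 differed from PBS by 0.07 (SE 0.09, -0.13 to 0.26, edgeR adjusted p = 0.655) in IL10/2-Trikine and by 0.16 (SE 0.09, -0.04 to 0.35, adjusted p = 0.347) in mono-IL10. Rbp2 differed by 0.25 from PBS (SE 0.16, -0.09 to 0.60, edgeR adjusted p = 0.280) and by 0.27 from mono-IL10 (SE 0.16, -0.074 to 0.61, adjusted p = 0.216). Without IL10/2-Trikine mouse 1 these log2 fold changes shrank to 0.064 and 0.078. For Rbp2 against mono-IL10 a minimum of 20 keratin UMIs gave a log2 fold change of 0.47 with an edgeR adjusted p of 0.0339. Its adjusted p was 0.110 to 0.299 under the other alternatives that kept all mice. Lgals4 differed from PBS by -0.11 (SE 0.18, -0.49 to 0.26, adjusted p = 0.701), Lypd8l by 0.07 (SE 0.22, -0.40 to 0.54, adjusted p = 0.861) and Dmbt1 by 0.08 (SE 0.22, -0.39 to 0.54, adjusted p = 0.846) in the same edgeR fit. Between mono-IL10 and PBS the log2 fold changes of the 8 genes ran from -0.25 for Phgr1 to 0.16 for Vsig1, with a lowest edgeR adjusted p of 0.347.

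**Figure D5:**
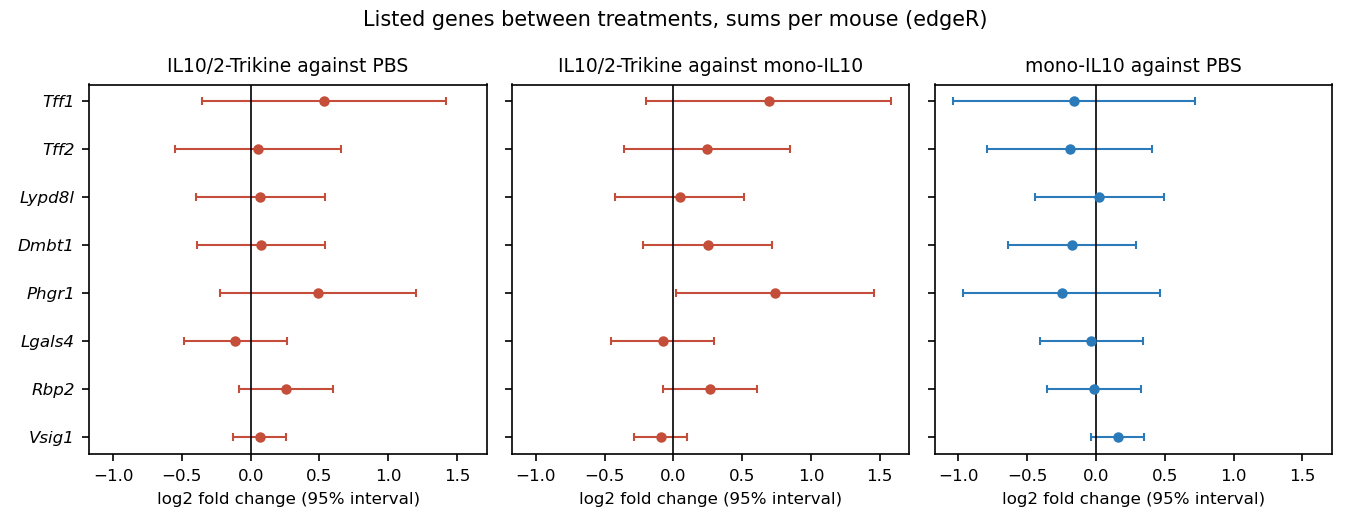
Log2 fold change of each of the 8 genes in tumor epithelial barcodes for the 3 comparisons, from sums over 5 mice per group, with 95% intervals as error bars and a line at 0. The only interval that leaves out 0 is that of Phgr1 for IL10/2-Trikine against mono-IL10, at 0.02 to 1.46.

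Some markers of other cells moved with the groups in the tumor epithelial barcodes. The summed level of 7 macrophage markers ran from 84.6 to 549.9 CPM over the IL10/2-Trikine mice, from 44.8 to 77.4 over the PBS mice and from 21.7 to 40.8 over the mono-IL10 mice, with 0 of the 7 at 0 in any mouse. That of 5 neutrophil markers ran from 107 to 181, from 39.1 to 55.5 and from 19.5 to 57.1 CPM, and that of 5 fibroblast markers from 285 to 845, from 75.4 to 309 and from 58.8 to 207 CPM, the latter overlapping between IL10/2-Trikine and PBS. Summed levels of 6 T and NK cell markers ran from 8.87 to 22.9 CPM over the IL10/2-Trikine mice, from 6.05 to 8.402 over the PBS mice and from 7.12 to 8.89 over the mono-IL10 mice. The last range overlapped that of IL10/2-Trikine. For 6 pan-immune markers, with Ptprc at 0 by the gate, the sums ran from 82.4 to 343, from 40.2 to 55.4 and from 22.2 to 42.4 CPM in the same order. Between IL10/2-Trikine and PBS mice the sums of 5 endothelial markers (8.08 to 13.5 and 2.90 to 14.5 CPM), 4 mast cell markers (6.26 to 16.2 and 13.1 to 18.9), 5 dendritic cell markers (1.38 to 7.06 and 1.298 to 2.69) and 2 erythroid markers (0.569 to 3.34 and 0.595 to 1.485) overlapped. The mast cell sum was mostly Mcpt8, at 14.4 CPM with PBS and 9.75 with IL10/2-Trikine, but only 0.257 in PBS immune barcodes. Cpa3, Kit and Fcer1a were higher with IL10/2-Trikine than with PBS. Most of the T and NK sum was Trac (6.91 CPM with IL10/2-Trikine and 6.66 with PBS), whereas Nkg7 stood at 2.70 and 0.244 CPM. IL10/2-Trikine mouse 1 was the highest of all mice for macrophage and fibroblast markers and for Tff1 and Rbp2. Barcodes with no hashtag had 1.42 to 1.69 times the Phgr1 level and 0.765 to 0.946 times the Lypd8l level of barcodes with 1 hashtag. The ratio was 1.004 to 2.23 for Tff1, highest in mono-IL10 at 56.4 against 25.3 CPM, and 0.985 to 1.49 for Tff2. The mono-IL10 barcode with 2185 Tff1 UMIs exceeds the Tff1 count of any mono-IL10 mouse (1567 at most), so it lay outside the barcodes with 1 hashtag. The ratio without that barcode was not computed. The part of these markers and of the hashtag calls in the results was not tested.

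The related lists held calls in both directions, to be read against the 23.1% of all genes called between IL10/2-Trikine and PBS, 10.8% higher and 12.3% lower. The share called in that comparison was 8.33% for the gastric list, 5.88% for the intestinal list and 19.05% for the gut transcription factors, none above the share over all genes. Of 12 tested gastric genes 1 rose against PBS, Gkn1, a gastric surface mucus gene, by 1.68 on the log2 scale (edgeR adjusted p = 0.0467) from levels of 0.124 to 1.12 CPM in PBS, and 1 fell against mono-IL10, Anxa10, by 0.49. Of 17 tested intestinal genes 1 rose against PBS, Spink4, a secreted goblet cell gene, by 1.36 (edgeR adjusted p = 0.000493). Its levels were 5.1996 to 9.54 CPM in PBS mice and 15.1 to 20.8 CPM in IL10/2-Trikine mice. These ranges did not overlap, but the share of all genes with such ranges was not counted. Spink4 was also higher than in mono-IL10 by 0.68. Of 21 tested gut transcription factors 1 rose and 3 fell against PBS (Klf5 0.26, Cdx2 -0.34, Pdx1 -0.30 and Hnf4a -0.18), and against mono-IL10 4 rose and 2 fell, among them Foxa3 (0.46) and Hnf4a (-0.23), or 28.6% called beside 35.4% of all genes in that comparison. Between mono-IL10 and PBS 5.63% of all genes were called by edgeR. Of the gut transcription factors 9.52% were called there, as Klf4 rose by 0.42 and Pdx1 fell by 0.41, while 0 gastric and 0 intestinal genes were called. In that comparison 1 of 12 gastric and 2 of 17 intestinal genes passed an unadjusted p of 0.05, beside 21% of all genes, and DESeq2 called 0 and 1.

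Of 6 tested galectins 0 were called between IL10/2-Trikine and PBS by edgeR, 2 passed an unadjusted p of 0.05 and 1 was called by DESeq2. Against mono-IL10, where 35.4% of all genes were called, 3 of the 6 were: Lgals8 rose by 0.23 while Lgals3 fell by 0.77 and Lgals2 by 0.22. Lgals3 was 0.53 higher in mono-IL10 than in PBS. Of 12 tested retinoid genes Rbp4, the plasma retinol carrier, fell by 0.46 and Aldh1a3, a retinoic acid forming enzyme, by 0.53 between IL10/2-Trikine and mono-IL10, and 0 were called between IL10/2-Trikine and PBS by edgeR or DESeq2, with 1 at an unadjusted p of 0.05. Rbp4 rose by 0.28 in mono-IL10 against PBS (edgeR adjusted p = 0.0177). Of 11 tested basal and mesenchymal genes 2 fell against PBS, Vim by 0.31 and Zeb1 by 0.19, and 0 rose. The share called was 18.2%, beside 23.1% of all genes called in either direction and 12.3% called lower. Of 10 tested epithelial identity genes 6 fell against PBS, or 60.0% beside the same 12.3%, with a median log2 fold change of -0.19 over the list and 0.00060 over all genes. Cldn4 fell by 0.97, Krt7 by 0.40 and Krt19 by 0.36. Krt18 (by 0.54) and Krt8 (by 0.22) are among the 6, but the gate was set on their UMIs, in libraries of different depth. The count, the 60.0% and the median of this list therefore rest partly on the gate and are descriptions only. Tyrp1 was 0.74 lower in IL10/2-Trikine than in mono-IL10 (edgeR adjusted p = 0.0146).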

How the data were processed

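Droplet-based 5′ gene expression and hashtag libraries were analysed for 3 treatments. The authors deposited UMI counts of genes by barcode, not normalized, and a table of annotated T and NK cells. The header of the counts names Cell Ranger 9.0.1, and the submitters' processing notes name GRCm39. Of the 9942 rows of the annotation, 7858 belong to 1 group that was not used. Total gene UMIs were 515236552 with PBS, 458860129 with mono-IL10 and 364814102 with IL10/2-Trikine, and counting error is larger where fewer UMIs lie behind a value. The members and the gene lists were chosen with earlier results of these data known, and so were the markers.

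Barcodes were filtered at 1000 genes and 10% mitochondrial UMIs, as the study did. Mice were called by HTODemux (Seurat 5.3.0, quantile 0.99). These calls matched the deposited ones in 93.2% to 98.8% of the annotated cells, and hashtag doublets were left out of the sums. Doublets within a mouse were not called. Sums per mouse were tested with edgeR 4.0.16 (filterByExpr, TMM, glmQLFit and glmQLFTest; R 4.3.3), with Benjamini-Hochberg adjustment over all genes tested, 3 groups in 1 fit and a call at an adjusted p of 0.05. DESeq2 1.42.0 was an alternative. An SE was taken as the absolute log2 fold change over the square root of F, with intervals from the t quantile. Whether mice of a group shared a cage or day is not given in the sources used here, so p-values measure the spread between these mice. Shares, correlations and comparisons with immune cells used numpy 2.4.6, scipy 1.17.1 and pandas 2.3.3 and have no test. CPM are counts scaled to 1000000 UMIs of the same barcodes. The fit was also run on simulated data, the outcome of which is not given here. Named were the 8 genes, the 10 genes most like their mean, and, from each list, up to 5 called genes of largest change and 3 of highest level. Genes described outside this rule, namely Hnf4a, Pdx1, Cdx2, Tff3, Muc5ac and Muc6 by level, Prap1 by barcodes and the 3 genes of lowest correlation, were chosen after their values were seen. Some list genes that the rule would name are not reported here. Whether reads of overlapping or near-identical genes such as Lypd8l and Lypd8 were split is not given in the sources used here.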

Additional observations from a re-analysis of the deposited data

Results flagged for a closer look

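Among 48 sets of 5 mice, 3 had a mouse that stood apart from the others by Dixon's ratio (critical value 0.71), where chance gives about 1 in 20. Rbp2 stood at 233 CPM in PBS mouse 1, with the nearest mouse at 168 CPM and a ratio of 0.726. Rbp2 also stood at 310.4 CPM in IL10/2-Trikine mouse 1, with the nearest mouse at 192 CPM and a ratio of 0.834. Lypd8l was found in 57.7% of tumor epithelial barcodes of mono-IL10 mouse 4, with the nearest mouse at 47.0% and a ratio of 0.776, without thinning. After thinning to 5000 UMIs the shares were 35.2% and 27.6% and the ratio 0.613, under the critical value.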

How the results depend on the processing

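No paired analysis was possible because each treatment was 1 library and hashtag numbers only name mice. For the log2 fold changes of the 8 genes, 224 of 240 values under other alternatives kept their direction and their side of the threshold, 3 passed it and 13 changed sign, and over the removal of single mice 334 of 360 were kept, 1 passed and 25 changed sign. None of the values that changed sign was called by edgeR, and the cause was not tested. Between mono-IL10 and PBS the sign changed for Tff1 with all deposited barcodes (0.030) and with a hashtag margin of 3 (0.076), for Lypd8l with all deposited barcodes (-0.00031), the margin (-0.083), thinned mice (-0.0099) and Epcam barcodes (-0.0082), and with Epcam for Dmbt1 (0.13) and Vsig1 (-0.031). With Epcam it also changed for Tff2 against PBS (-0.86) and, against mono-IL10, for Lgals4 (0.24) and Vsig1 (0.067), and with 20 keratin UMIs for Lgals4 (0.046 against PBS, 0.11 against mono-IL10). Without 1 mouse in turn, log2 fold changes between mono-IL10 and PBS ran from -0.46 to 0.13 for Tff1, -0.15 to 0.19 for Lypd8l, -0.11 to 0.074 for Lgals4 and -0.10 to 0.11 for Rbp2. Against PBS those of IL10/2-Trikine ran from -0.21 to 0.19 for Tff2, -0.077 to 0.24 for Lypd8l and -0.046 to 0.20 for Dmbt1, and against mono-IL10 from -0.019 to 0.44 for Tff2, -0.033 to 0.21 for Lypd8l and -0.22 to 0.030 for Lgals4.

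Genes called between IL10/2-Trikine and PBS numbered 3442, 2270 with mice thinned to 1 total, 805 in Epcam barcodes and 2773 to 3476 without 1 mouse. Between IL10/2-Trikine and mono-IL10 they numbered 5279, 1490 with Epcam and 4580 to 5337 without 1 mouse. Between mono-IL10 and PBS they numbered 839, 550 with every gene that had a count, 481 thinned, 461 with the margin, 183 with Epcam and 463 (without PBS mouse 4) to 1089 (without IL10/2-Trikine mouse 1). The median share of barcodes over the 8 genes, 36.3%, became 58.0% with Epcam and 24.7% after thinning, and the mean correlation over the 28 pairs, 0.216, became 0.197 by rank and 0.172 after thinning. Shares of barcodes are limited by depth.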
